A study of Caenorhabditis elegans with 6 samples.

Results

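The Str superfamily of Caenorhabditis elegans, made of the str, srj, srh, sri and srd families, was followed in RNA-seq libraries of whole hermaphrodites grown alone or in groups. Its members were chosen by a measured value, namely at least 10 raw counts summed over the 6 libraries. Of 580 rows of the count table with a symbol of these 5 families in the names used, 159 met that minimum and are called detected here. A further 136 rows are pseudogenes of these families that carry no family symbol in those names and so were not members. Of these, 26 had at least 10 counts, and they are described at the end. The whole table held 46756 rows, of which 18428 had at least 10 counts.

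All animals carried the exopher reporters of strain ACH93 in an N2 background, which are a proteasome subunit fused to red wrmScarlet and a mitochondrial green fluorescent protein, both driven by the muscle myo-3 promoter. They were kept at 20 °C on agar plates with E. coli OP50 and were collected as whole animals on adulthood day 2. In 3 solitary libraries the animals had grown at 1 worm per plate, and in 3 10-worm libraries at 10 worms per plate. The comparison asks which receptor genes respond to the density of hermaphrodites. The study found no receptor significantly changed in it and took up str-173 for a trend and for its expression in ASK neurons. Knockout of str-173 had no robust effect there on how density lowers the number of exophers, which are large vesicles released by muscle. It did prevent their increase in response to male pheromones. The labels call the 3 libraries of each condition biological replicates.

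Chemoreceptors of this superfamily are seven-transmembrane G-protein-coupled receptors that worms use to smell and taste their surroundings. Most of those studied are made in 1 or a few pairs of ciliated sensory neurons, and a single sensory neuron can make many receptors. The receptor protein is carried to the sensory cilium, where it acts through G proteins on cyclic GMP-gated or TRPV channels. In whole animals the transcript of such a receptor is diluted by muscle, intestine and germ line, and fewer cells of a type and less RNA per cell cannot be told apart.

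The libraries held 55176436 to 62794403 counts each. Summed CPM (counts scaled to the library size and the TMM factors of edgeR) of 6 neuronal genes lay between 136 and 145 in the solitary libraries and between 131 and 153 in the 10-worm libraries. That of 6 genes of ciliated sensory neurons lay between 4.99 and 5.32 and between 5.32 and 5.75, respectively, and none of these markers was at 0 counts. The markers of body wall muscle, intestine, epidermis, pharynx and germ line were all present. The summed CPM of the 3 epidermal markers lay between 190 and 219 in the solitary and between 131 and 181 in the 10-worm libraries, without overlap, and was mostly that of the collagen col-19 (198 ± 15.9 against 156 ± 25.8, SD, n = 3 each). The epidermal markers dpy-7 and rol-6 varied within conditions. In the solitary libraries dpy-7 had 139, 270 and 12 counts and rol-6 had 3, 135 and 4. In the 10-worm libraries they had 179, 155 and 178 and 1, 4 and 154, respectively. At unadjusted p-values of 0.0104 to 0.0261 in edgeR's test, myo-3 of muscle, ges-1 of intestine, pha-4 of pharynx and glp-1 of germ line were higher in 10 worms, by log2 fold changes of 0.13 to 0.32. Over all tested genes 5.19% were higher at an unadjusted p under 0.05 in that test. The other markers of muscle and pharynx had log2 fold changes of -0.04 (unc-15), -0.03 (unc-54) and -0.11 (myo-2). Those of intestine and germ line had 0.26 (elt-2), 0.04 (vit-2), 0.003 (pgl-1) and 0.04 (gld-1). The sperm protein gene msp-3 was at 0 counts and msp-19 at 1 count. The third sperm marker, spe-9, had 283 counts, at 0.916 ± 0.045 CPM in solitary and 0.687 ± 0.047 in 10-worm animals (SD, n = 3 each). Its log2 fold change was -0.41 (SE 0.21). The summed CPM of the sperm markers lay between 0.87 and 0.96 in the solitary and between 0.66 and 0.74 in the 10-worm libraries, without overlap. None of the marker genes tested had an adjusted p under 0.05 in edgeR's quasi-likelihood test, and the part of any of these tissues in the results below was not tested.

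The detected share differed between the families as a description of the counts that chose the members. It was 38.8% for srd (26 of 67 rows, 95% Wilson interval 28.1 to 50.8%) and 34.4% for sri (21 of 61, 23.8 to 47.0%). It was 28.2% for srj (11 of 39, 16.5 to 43.8%) and 27.5% for str (53 of 193, 21.7 to 34.2%). The lowest share was that of srh, the family with the most rows, at 21.8% (48 of 220, 16.9 to 27.7%). With a minimum of 5 counts instead, sri had the highest share (54.1%) and str the lowest (40.9%). At the minimum of 10 the intervals of srd and srh did not touch, and those of all other pairs overlapped. They cover the counting of rows only, since neighbouring rows of a family are not independent. All these shares leave out the pseudogenes, of which 9 of 17 in sri and 2 of 8 in srd had at least 10 counts. The order of sri and srd therefore depends on which rows are counted as the family.

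A minimum of 10 counts left the majority of each family undetected. Of the 421 rows below it, 126 had no count in any library and 295 had 1 to 9. A row with 0 of the 353933813 counts may still have a level of up to 0.00848 CPM, the value of 3 counts, so these rows were not detectable at this depth rather than absent. Just inside the minimum lay 11 members with exactly 10 counts, among them srd-1, srh-8 and str-90. Just outside lay 9 rows with 9 counts, among them srd-42, srj-15 and str-9. As many as 94 rows had 5 to 9 counts and 43 members had 10 to 14, so many rows lay close to the boundary on both sides.

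Some receptors whose neurons are known were looked up by name. Over all 580 rows of the families 27.4% were detected, and these genes are too few to be compared with that share. The rows of str-2 (AWC neurons), str-217 and srh-234 (both ADL neurons) had no count in any of the 6 libraries. That of str-1, a receptor of AWB neurons, had 1 count in all, srh-220 of ADL neurons 2, sri-51 of ADL neurons 4, str-3 of ASI neurons 6 and srh-142 of ADF neurons 8. Of those considered here, the minimum was reached by srd-1, made in ASI neurons, with 10 counts, and by str-44, made in AWA neurons, with 16. It was also reached by str-173 with 65 counts, which the study placed in ASK neurons and in other cells and which is described further on. The diacetyl receptor gene odr-10, a relative of the str genes that is made in AWA neurons and carries another name, was counted in every library (18, 19 and 21 with solitary animals and 11, 14 and 33 in the 10-worm libraries).

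**Figure D1:**
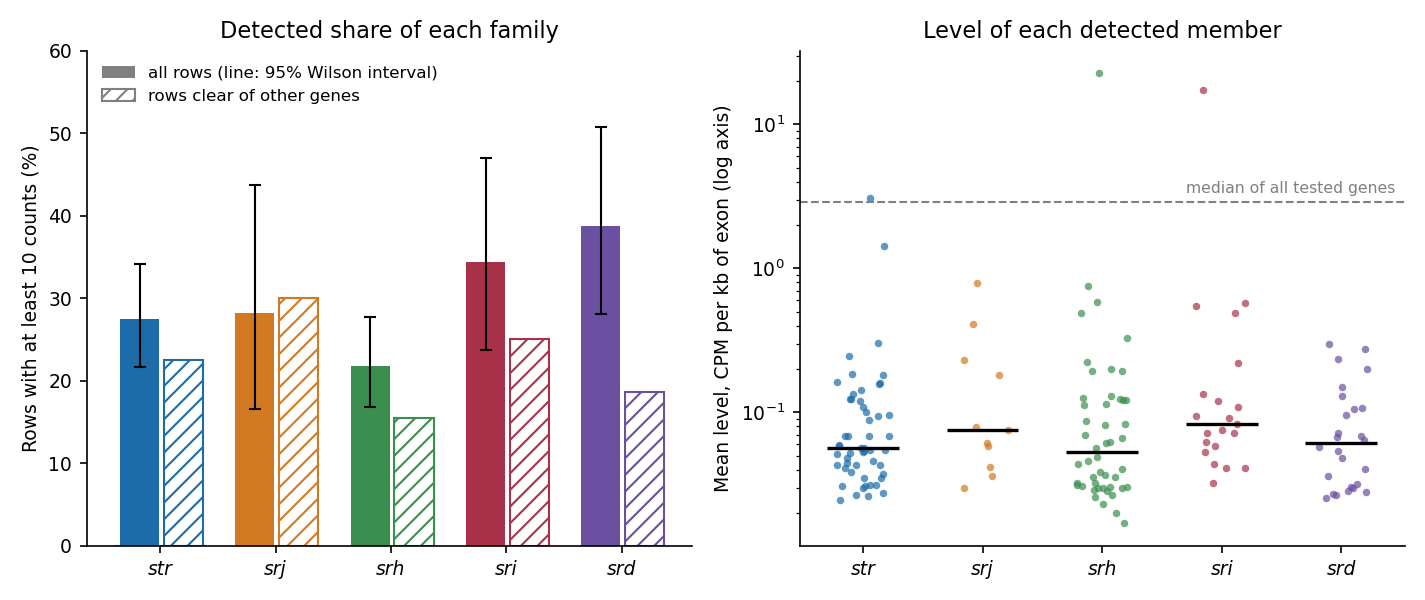
Left, share of the rows of each family with at least 10 counts, over all rows (filled bars, lines show the 95% Wilson interval) and over rows clear of other genes (hatched bars). Right, mean level over 6 libraries of each of the 159 detected members, 1 point per gene, with the family median as a black line and the median of all tested genes, 2.89 CPM per kb, as a dashed line. Only srh-237, sri-40 and str-176 lie above the dashed line.

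Most detected members were at the edge of detection, and 2 genes carried most of the counts. The members had a median of 23 counts over the 6 libraries, 93 of them had a mean under 5 counts per library, and 95 had a count in every library. Of the 25418 counts of all members, srh-237 and sri-40 together held 15765, which is 62.0%. Levels between genes were compared as CPM per kb of exon. The median level was 0.0612 CPM per kb for the members, against 2.89 for all 18428 tested genes, and only 3 members exceeded the latter.

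By median level the families lay close together. It was 0.0831 CPM per kb for sri, 0.0754 for srj, 0.0608 for srd, 0.0562 for str and 0.0526 for srh. The interquartile range of srh members was 0.0305 to 0.123 and that of sri members 0.0581 to 0.135, so the families overlapped almost entirely. They differed in how unevenly their counts were spread. In sri, sri-40 held 84.9% of the counts of the 21 members, and in srh, srh-237 held 78.3% of those of 48. In srd no member held more than 14.7%, the share of srd-32.

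The gene srh-237 (WBGene00005444, chromosome V, 17090379 to 17091714, plus strand) had the highest level of all members. It had 1452, 1436 and 1385 counts in the solitary and 1351, 1529 and 1115 in the 10-worm libraries. Its level was 22.7 ± 2.67 CPM per kb (SD over 6 libraries). The groups overlapped in CPM. By raw count, which does not allow for library size, the lowest was in 10-worm library 3 and the highest in 10-worm library 2. Its log2 fold change, here always 10 worms over solitary, was -0.15 (SE 0.11, adjusted p = 0.625, quasi-likelihood test of edgeR, Benjamini-Hochberg adjustment over all tested genes). The nearest strongly expressed gene within 1 kb was T05E12.6, at 128 CPM per kb on the opposite strand, 936 bases away.

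The gene sri-40 (WBGene00005552, chromosome II, 3177963 to 3180478, plus strand) came next. Its counts were 1366, 1547 and 1090 in the solitary and 1253, 1068 and 1173 in the 10-worm libraries, and its level was 17.4 ± 2.65 CPM per kb (SD over 6 libraries). In each of the 6 libraries it was below srh-237 per kb. The groups overlapped because solitary library 3 fell within the range of the 10-worm libraries, while the other 2 solitary libraries were above all 10-worm values. The log2 fold change was -0.25 (SE 0.12, unadjusted p = 0.0549, adjusted p = 0.433, edgeR's quasi-likelihood test). Without solitary library 3 the adjusted p was 0.0295 at a log2 fold change of -0.38, so that library decided the call.

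Both genes varied between libraries of a condition by more than counting error. The spread index, the chi-square of the counts within conditions over its degrees of freedom, which is 1 for counting error alone, was 18.5 for srh-237 and 20.7 for sri-40. The median over the 3321 tested genes with a mean of 500 to 3000 counts was 5.22 and their upper decile 22.5. For the members with a mean under 20 counts the median index was 1.5, against 1.53 for the 4802 tested genes below that mean.

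The str genes followed with str-176 (WBGene00006220, chromosome IV, 8460999 to 8463816, minus strand). It had 237, 274 and 344 counts in the solitary and 369, 323 and 288 in the 10-worm libraries, at a level of 3.11 ± 0.41 CPM per kb. The groups overlapped and the log2 fold change was 0.14 (SE 0.14). The next gene, str-245 (chromosome I, 14852818 to 14854711), had 103, 88 and 85 counts in the solitary and 121, 86 and 98 in the 10-worm libraries, at 1.43 ± 0.20 CPM per kb. It lies inside aex-5, the gene of a proprotein convertase on the opposite strand with which it shares exonic bases, and aex-5 stood at 10.2 CPM per kb. The library kit named by the study does not mark strand, so reads of the 2 genes cannot be told apart there.

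Below these 4 genes no member exceeded 1 CPM per kb. The highest srj gene was srj-14 (WBGene00005602, chromosome V, 7369708 to 7372131) at 0.79 ± 0.17 CPM per kb, with no other counted gene within 1 kb. The next srj genes, srj-52 and srj-9, stood at 0.413 ± 0.096 and 0.231 ± 0.042 CPM per kb. In srh, srh-71 at 0.753 ± 0.234 and srh-2 at 0.585 ± 0.138 CPM per kb came after srh-237. The SDs of srj-14, srh-71 and srh-2 exceeded the gaps between them or came close, so their order was not resolved.

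In srd the 3 highest members were close to each other. They were srd-64 at 0.296 ± 0.091, srd-32 at 0.277 ± 0.041 and srd-53 at 0.236 ± 0.088 CPM per kb, and the SDs span the gaps. In sri, sri-36 at 0.572 ± 0.155 and sri-39 at 0.548 ± 0.356 CPM per kb followed sri-40. These genes lie 1910 bases apart on chromosome II. The counts of sri-39 were 44, 8 and 17 in the solitary and 75, 27 and 42 in the 10-worm libraries, so that the solitary libraries alone ranged from 8 to 44.

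**Figure D2:**
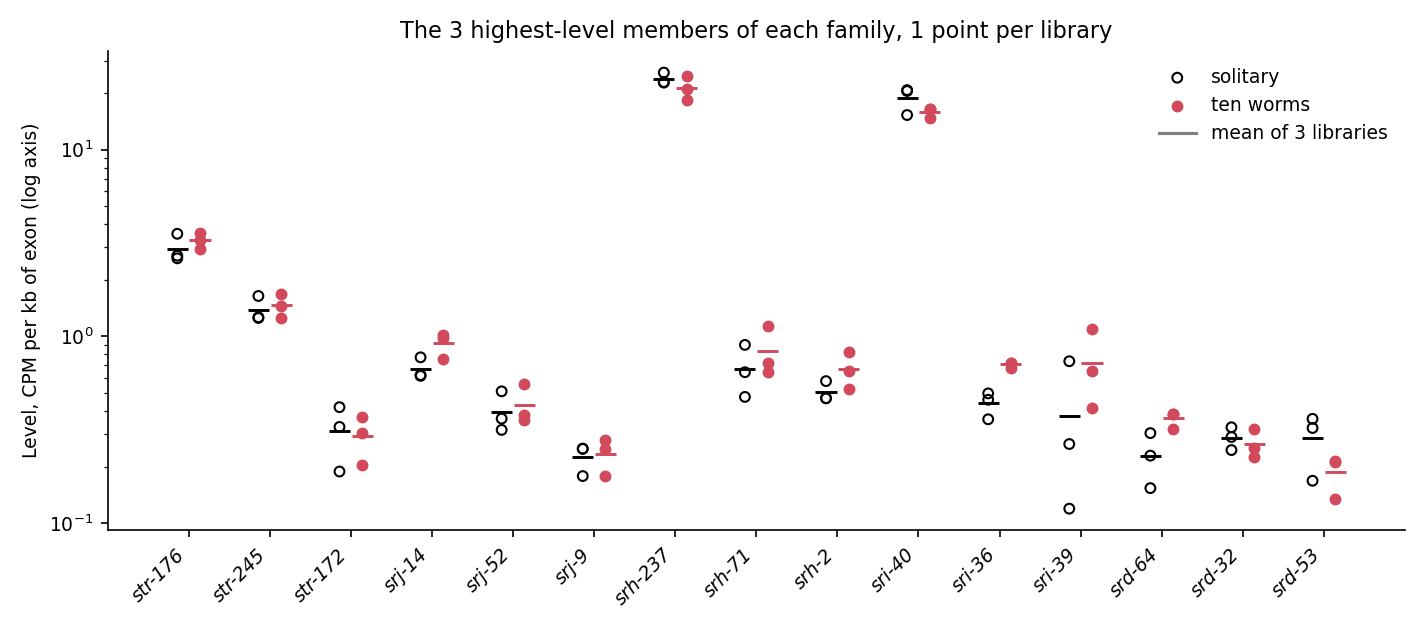
Level in CPM per kb of exon (log axis) of the 3 highest-level members of each family, 1 point per library with open circles for solitary and filled circles for 10 worms, and a line at the mean of 3 libraries. srh-237 and sri-40 stand above all others in every library, and sri-39 spreads most within a condition.

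Where the members lie was not used by the rule and was described next. Chromosome V held 426 of the 580 rows and 108 of the 159 members, a detected share of 25.4%. Chromosome II held 67 rows with 25 detected (37.3%) and chromosome IV 44 with 13 detected (29.5%). The highest shares were on the chromosomes with the fewest rows, III with 5 of 9 detected (55.6%) and I with 6 of 13 (46.2%). On the X chromosome 2 of 21 rows were detected (9.52%), and 14 of these rows were srd genes, of which 1 was detected. All 11 srj members were on chromosome V, as were 37 of the 39 srj rows. Chromosome II held 11 of the 21 sri members and 31 of the 61 sri rows.

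Detected rows were less crowded by other rows of the 5 families than undetected rows. The nearest row of the 5 families was a median of 4920 bases away for detected and 1247 bases away for undetected rows. It was itself detected for 62 of the 159 members (39.0%) and for 83 of the 421 undetected rows (19.7%). These differences were not tested, because rows of a cluster share their position. Runs of at least 3 members with gaps of up to 5000 bases were formed by sri-74, sri-36 and sri-39 and by sri-29, sri-30 and sri-31 on chromosome II, and by srh-33, srh-34 and srh-35 on chromosome V.

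Within such a run the levels differed widely. In the run on chromosome II, sri-36 had 204 counts and sri-39 had 213, whereas sri-74, which lies 587 bases from sri-36, had 23. Similarly, srj-52 had 79 counts and srj-53, 600 bases away, had 20. On chromosome IV, str-172 (4864890 to 4867710, minus strand) and str-173 (4861773 to 4864149, plus strand) lie 740 bases apart and had 126 and 65 counts.

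The detected share was higher where a gene nearby was strongly expressed, given here without a test. For rows whose strongest neighbour within 1 kb stood under 1 CPM per kb, 93 of 452 were detected (20.6%). With a neighbour at 1 to 10 CPM per kb it was 30 of 65 (46.2%), at 10 to 100 it was 28 of 51 (54.9%), and at 100 or more it was 8 of 12 (66.7%). The median level of the strongest neighbour was 0.413 CPM per kb for members and 0.0159 for undetected rows. A neighbour of at least 10 CPM per kb was present for 36 members (22.6%) and for 27 undetected rows (6.41%). Whether reads from such neighbours added to the counts of members was not tested.

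The neighbours of several leading members were among the strongly expressed genes of the animal. In srh, srh-269 lies 529 bases from cpl-1, the gene of a cathepsin L protease, at 929 CPM per kb, and srh-2 lies 296 bases from icl-1, which encodes the glyoxylate cycle enzymes, at 87.6. Both sri-36 and sri-39 flank F33H12.7 at 42.9 CPM per kb. By contrast, srj-14, srd-64 and srd-32 had no other counted gene within 1 kb, and the strongest neighbour of sri-40 stood at 1.01 CPM per kb, far below sri-40 itself.

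Shared exonic bases were also more frequent among detected rows. Of the 159 members, 42 (26.4%) shared exonic bases with another annotated gene, against 13.5% of the undetected rows. For 27 of the 42 a protein-coding gene was involved, and for the other 15 only noncoding RNAs or pseudogenes. The srd family had the highest share, with 15 of its 26 members (57.7%) sharing exonic bases, 11 of them with a protein-coding gene, against 14.6% of its undetected rows. In srj it was 1 of 11 members. The counts of such members are uncertain.

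When only rows clear of other genes were kept (no shared exon, no gene around them and no neighbour of at least 10 CPM per kb within 1 kb), the order of the families changed. The detected share was then 18.6% for srd (8 of 43), 25% for sri (10 of 40), 30% for srj (9 of 30), 22.4% for str (33 of 147) and 15.5% for srh (26 of 168). Thus srd moved from the highest share to the second lowest. Over the 5 families 86 of 428 such rows were detected (20.1%), and their median level was 0.0572 CPM per kb.

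**Figure D3:**
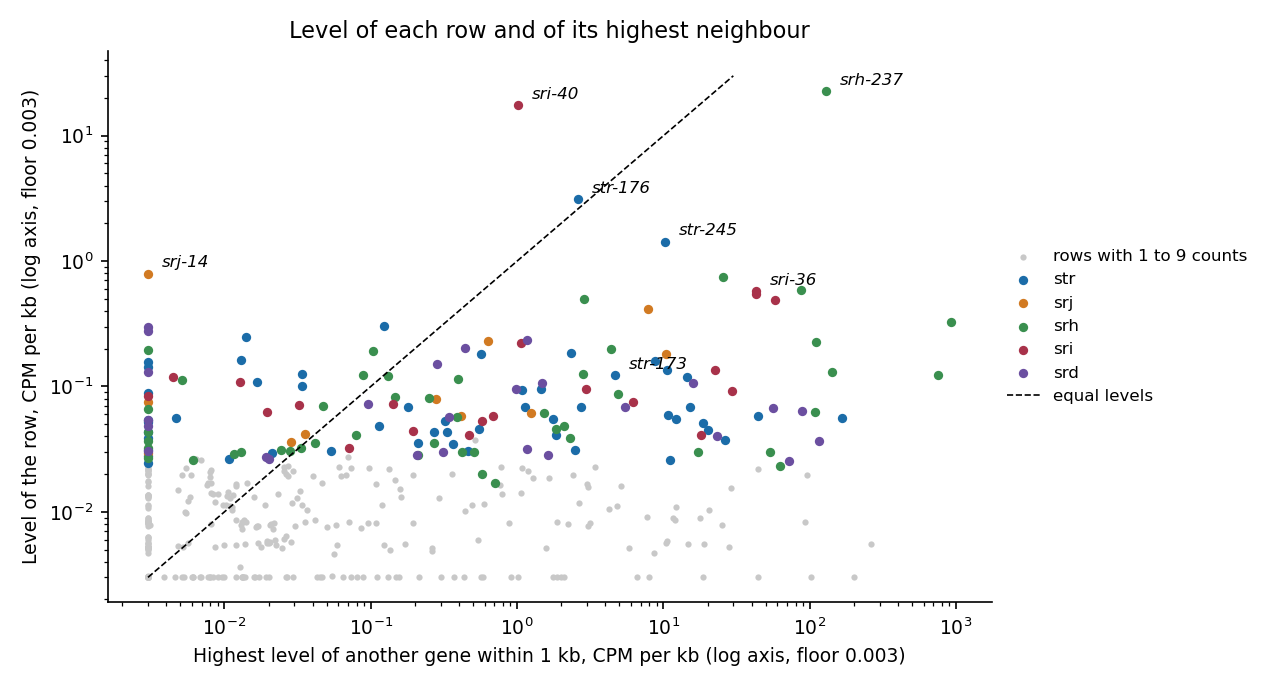
Level of each row with a count (vertical) against the highest level of another gene within 1 kb (horizontal), both in CPM per kb on log axes with a floor of 0.003, with detected members in family colours and rows with 1 to 9 counts in grey. Points right of the dashed line have a neighbour above their own level, by at least 10-fold for 71 of the 159 members. sri-40 and srj-14 lie well to the left of it.

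No member passed the threshold in the comparison of 10 worms per plate with solitary animals. In edgeR's quasi-likelihood test 44 of the 18428 tested genes had an adjusted p under 0.05 (0.239%) and none of the 159 members did. The smallest adjusted p of a member was 0.307 in this test. DESeq2 also gave 0, among the 3 members to which it assigned an adjusted p. At an unadjusted p under 0.05, 5 members were higher in 10 worms (3.14%, background 5.19%) and 1 was lower (0.629%, background 6.71%). DESeq2 gave 1 in all, the lower sri-40.

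The low counts of the members set the precision of these comparisons. The median SE of a log2 fold change was 0.82 for members and 0.17 for all tested genes. Among the 143 members with a mean under 20 counts, 3 were higher (2.10%) and 1 lower (0.699%) at an unadjusted p under 0.05. Over the 4802 tested genes below that mean the shares were 2.75% and 1.5%. The shares of members were thus near or below the background, and no result about the members is read from them.

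The median fold change over all members lay near that of all tested genes, and that of sri was the highest of the 5 families. The median log2 fold change was 0.10 over the members, with 88 higher (55.35%) and 71 lower, and 0.00 over all tested genes, of which 50.6% were higher. The medians of the families were not tested, and the median SE of a single member was 0.82. The median log2 fold change was 0.47 for sri (15 higher, 6 lower), 0.10 for str (31 and 22), 0.10 for srd (14 and 12), 0.05 for srj (6 and 5) and -0.06 for srh (22 and 26). Of the 31 members with an absolute log2 fold change above 1, the one with the most counts had a mean of 10.8 per library, which was str-173. Among the 16 members with a mean of at least 20 counts, 10 were higher and 6 lower, and the largest absolute log2 fold change was 0.97, that of sri-39.

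The libraries of the 2 conditions did not overlap in CPM for 18 members. In 10 of them (6.29%) all 10-worm libraries were higher, against 8.51% of all tested genes. In 8 (5.03%) all were lower, against 9.83%. Those with a mean of at least 20 counts were sri-36 and sri-11, both higher. The others reached at most 103 counts over the 6 libraries, namely srh-269 with 13, 14 and 11 in the solitary and 31, 17 and 17 in the 10-worm libraries.

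**Figure D4:**
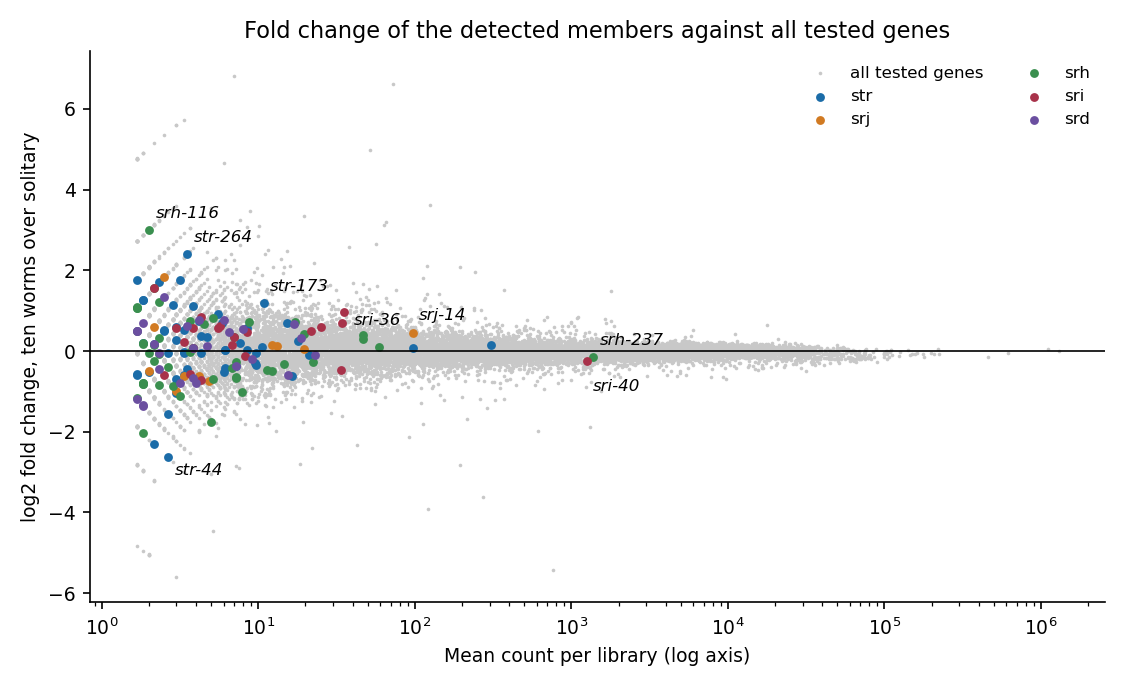
Log2 fold change of 10 worms over solitary against the mean count per library (log axis), with the 159 members in family colours over all 18428 tested genes in grey. Members lie mostly at mean counts under 20, where grey points spread widely too, and srh-237 and sri-40 lie far to the right near 0.

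The receptor gene str-173 (WBGene00006217), followed up by the study, had 9, 5 and 5 counts in the solitary and 18, 14 and 14 in the 10-worm libraries. A reporter knock-in of the study showed it in ASK neurons, and also in the pharynx, the vulva, the tail and probably OLQ neurons. Which of these cells its counts came from cannot be told in whole animals. All 3 10-worm values were above all solitary values. Its level was 0.0751 ± 0.0319 CPM per kb in solitary and 0.172 ± 0.0208 in 10-worm animals (SD, n = 3 each). The log2 fold change was 1.2 (SE 0.45, unadjusted p = 0.0207, adjusted p = 0.318, edgeR's quasi-likelihood test), and the gene ranked 40 among the members by level. Without solitary library 2 or 3 or 10-worm library 1 the unadjusted p of the edgeR test was 0.0698, 0.0599 and 0.0659. With DESeq2 and all libraries the unadjusted p of str-173 was 0.0823. Its neighbour str-172 had 21, 30 and 13 counts in the solitary and 15, 26 and 21 in the 10-worm libraries, which overlapped. The annotated exons of str-173 also share bases with a tRNA gene and a noncoding RNA gene at its start.

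Of the other members with small p-values, sri-36 had the smallest. Its counts were 25, 22 and 29 in the solitary and 45, 43 and 40 in the 10-worm libraries, with no overlap. The CPM was 0.439 ± 0.070 in solitary and 0.710 ± 0.024 in 10-worm animals (SD, n = 3 each), and the log2 fold change was 0.69 (SE 0.25, unadjusted p = 0.0184, adjusted p = 0.307, edgeR's quasi-likelihood test). Without solitary library 2 the unadjusted p of that test was 0.0743, and with DESeq2 and all libraries it was 0.0688.

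In srj, srj-14 had 69, 78 and 93 counts in the solitary and 97, 121 and 123 in the 10-worm libraries. In CPM the groups overlapped, and the log2 fold change was 0.46 (SE 0.19, unadjusted p = 0.0364, adjusted p = 0.378, edgeR's quasi-likelihood test). It had the most counts among the members with an unadjusted p under 0.05. Without solitary library 1 or 2 or 10-worm library 2 or 3 the unadjusted p of the edgeR test lay between 0.103 and 0.110, and with DESeq2 it was 0.0619.

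The other 2 members with a higher count in 10 worms rested on very few reads. The gene str-264 had 1, 0 and 2 counts in the solitary and 6 in each 10-worm library, a scaled ratio of 5.78 with a 95% counting interval of 1.69 to 30.7. The gene srh-116 had 0, 0 and 1 counts in the solitary and 6, 3 and 2 in the 10-worm libraries, a ratio of 10.6 with an interval of 1.54 to 456. Both genes passed the count minimum only through the 10-worm libraries and were picked for their small p. Their ratios and intervals follow in part from that choice and give no support for a difference. The intervals cover counting error only, and the adjusted p of edgeR's test was 0.311 for str-264 and 0.357 for srh-116.

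Among members with lower values, str-44 of AWA neurons had 2, 10 and 2 counts in the solitary and 1, 1 and 0 in the 10-worm libraries. Solitary library 2 held 10 of its 16 counts. The scaled ratio of 10 worms over solitary was 0.138 with a 95% counting interval of 0.0152 to 0.600, and the adjusted p was 0.374 in edgeR's test. The next by p were sri-40, given above, and srh-166 with 16, 4 and 3 counts in the solitary and 4, 1 and 2 in the 10-worm libraries, where 1 library again held most counts. Last came str-67 with 4, 2 and 5 counts in the solitary and 0, 2 and 0 in the 10-worm libraries, a gene that lies inside rnst-2, a ribonuclease T2 gene at 26.3 CPM per kb. Its scaled ratio was 0.175 with a counting interval of 0.0189 to 0.803. The genes str-44, srh-166 and str-67 passed the count minimum only through the solitary libraries and were picked for their small p. The ratios and intervals of str-44 and str-67 therefore give no support for a difference. The adjusted p of srh-166 and str-67 was 0.457 and 0.458 in edgeR's test.

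**Figure D5:**
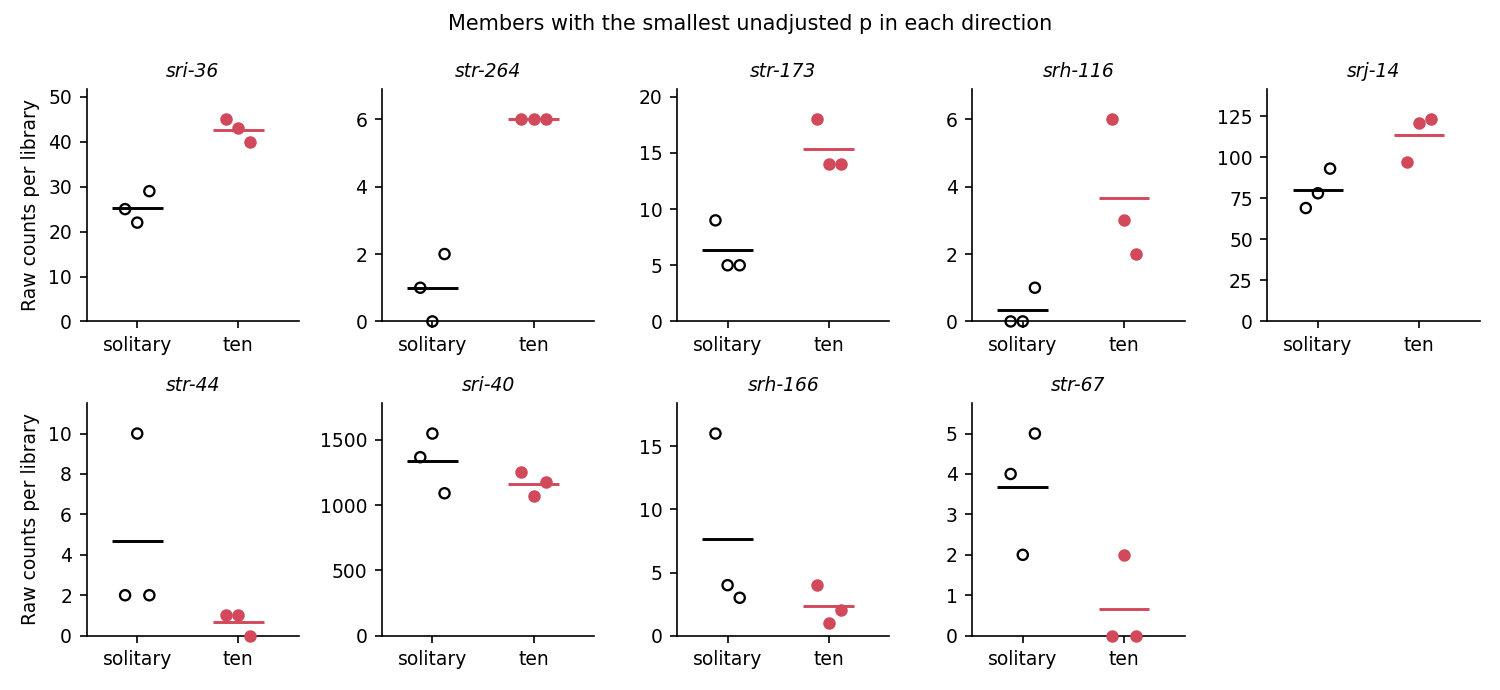
Raw counts per library of the 5 members with the smallest unadjusted p that were higher in 10 worms (top row) and the 4 that were lower (bottom row), 1 point per library with a line at the mean of 3. The axes start at 0 and differ between panels, and str-264, srh-116, str-44 and str-67 have at most 10 counts in any library.

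Summed over a family, the receptor transcripts differed little between conditions. The summed CPM of all 159 members was 77.2, 74.1 and 69.4 in the solitary and 72.3, 71.9 and 66.4 in the 10-worm libraries, a ratio of 0.954 of 10 worms over solitary. The 5 family ratios were 1.19 for srj, 1.09 for str, 1.04 for srd, 0.926 for srh and 0.898 for sri. In all 5 families the libraries of the 2 conditions overlapped. Without the member with the most counts the ratio turned in 3 families, to 1.30 for sri without sri-40, to 1.03 for srh without srh-237 and to 0.976 for srj without srj-14. It was 1.08 for str without str-176 and 1.06 for srd without srd-32. Since srh-237 and sri-40 dominate these sums, the remaining 157 members were also summed, which gave 25.4, 25.1 and 27.0 CPM in the solitary and 30.3, 28.3 and 27.4 in the 10-worm libraries. Without them the ratio was 1.11 and the groups did not overlap, by a margin between the nearest libraries smaller than the spread within either group. This sum was formed after the counts had been seen and was not tested. The summed CPM of the 6 genes of ciliated sensory neurons given above did not overlap in the same direction (4.99 to 5.32 in solitary and 5.32 to 5.75 in 10 worms, where the nearest libraries were almost equal), and its part in the sum of the receptors was not tested.

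The genes that carry receptors to the cilium and pass on their signal were compared as a list of 15, all of which were tested. None had an adjusted p or an unadjusted p under 0.05 in edgeR's test, and the median log2 fold change was -0.005. The genes of receptor transport were abundant, with odr-4, needed to bring chemoreceptors to the cilium, at 54.4 ± 0.473 CPM in solitary animals (SD, n = 3), the ODR-4 partner odr-8 at 122 and the clathrin adaptor subunit unc-101 at 71.3. Genes of sensory signalling spanned a wide range. The arrestin arr-1 and the receptor kinase grk-2 stood at 24.8 and 14.3 CPM, and the G proteins gpa-3 and gpa-13 at 1.23 and 1.00. Lower levels were those of the cyclic GMP-gated channel subunits tax-2 and tax-4 at 0.206 and 0.286 CPM, the receptor guanylate cyclases odr-1 and daf-11 at 0.218 and 0.391, and the G protein odr-3 at 0.686. The largest fold changes among the 15 were those of the G protein gpa-2 (log2 fold change 0.56, SE 0.27, unadjusted p = 0.0607 in edgeR's test) and of daf-11 (0.54, SE 0.26, unadjusted p = 0.0589 in edgeR's test), with 190 and 171 counts in all.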

How the data were processed

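Whole-animal polyadenylated RNA was sequenced as paired-end reads. The deposited values are raw counts per gene, which the authors made by trimming with Trimmomatic 0.36, aligning with STAR 2.5.2b to the C. elegans reference (WBcel235 per the labels) and counting unique reads in exons with featureCounts of Subread 1.5.2. The deposited normalized table was not used here. Names came from a WormBase table that matched 43798 of 46756 rows, and exon positions from the Ensembl 115 annotation of WBcel235.

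All 18428 genes with at least 10 counts were fitted with edgeR 4.0.16 (TMM scaling, quasi-likelihood test, growth condition as the only term, Benjamini-Hochberg adjustment over all of them) in R 4.3.3. DESeq2 1.42.0 was an alternative. Levels are TMM-scaled CPM per kb of merged exons, averaged over libraries. The fitting code was tested on simulated data. Named genes were str-173, the 3 members of each family with the highest level, the 4 with the smallest unadjusted p in each direction, receptors with a known neuron, and members beside the minimum. Others with a strong neighbour, in runs or without overlap were named after their values were seen, as was the choice of rows clear of other genes. The members and lists were chosen with earlier results of these data known. Promoter and protein sequences were not analysed here.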

Additional observations from a re-analysis of the deposited data

How the results depend on the processing

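Leaving out single libraries, the members with an adjusted p under 0.05 numbered 0 to 1 and those with an unadjusted p under 0.05 numbered 3 (without 10-worm library 1) to 10 (without solitary library 3) against 6 with all libraries. The member past the adjusted threshold was sri-40, without solitary library 3. The count at an unadjusted p was 1 with DESeq2, 3 with edgeR's filterByExpr in place of the count minimum and 16 with no minimum, when 454 rows of the families could be tested. The cause was not tested, beyond fewer or more rows entering. Leaving out a library at an unchanged minimum cannot raise a detected share. The share of sri was above that of srd without each solitary library in turn and without 10-worm library 2. Without single libraries the detected share lay between 15.9 and 19.6% for srh, between 29.85 and 34.3% for srd and between 32.8 and 34.4% for sri. With at least 5 counts it was 40.9% for str, 41.0% for srj, 41.8% for srh, 49.3% for srd and 54.1% for sri, so that srd was no longer the highest or srh the lowest, and with at least 30 counts 10.9% for str, 10.3% for srj, 9.09% for srh, 19.7% for sri and 13.4% for srd. Over rows clear of other genes, a choice made after seeing the data, it was 15.5% for srh and 18.6% for srd. The summed level of 10 worms over solitary was 1.30 for sri without sri-40, and 1.11 for all members without srh-237 and sri-40, also chosen after seeing the data. Of 269 fold changes of named genes under these settings, 7 turned, all on leaving out 1 library, when the log2 fold change of str-245 ranged from -0.038 to 0.22, of str-172 from -0.35 to 0.18 (0.11 without 10-worm library 1), of srj-52 from -0.10 to 0.33 (-0.01 without solitary library 3) and of srj-9 from -0.089 to 0.22 (-0.088 without 10-worm library 2).

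No pairing of the samples by replicate number was seen in the counts. The deviations of libraries with the same number correlated at 0.172, -0.292 and -0.289 over 10491 genes, and those with other numbers at up to 0.411. With 3 libraries per condition these values cannot exclude that libraries of the same number were grown or handled together, which the labels do not state. With the replicate number as a block, 5 members had an unadjusted p under 0.05 and 0 an adjusted one.

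The depth limits all comparisons of single members. A member at the minimum of 10 counts has fewer than 2 counts per library, and the median SE of a member's log2 fold change was 0.82. Levels rest on annotated exons, and reads that 2 genes share cannot be assigned to either of them.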

Other observations

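Pseudogenes of the same families were counted too. RefSeq lists 136 pseudogenes with symbols of these 5 families on the same assembly, and all 136 were matched to rows of the count table by identical position. Of these, 26 (19.1%) had at least 10 counts and 42 had none. The share was 52.9% for sri (9 of 17), 25% for srd (2 of 8), 16.7% for srj (1 of 6), 15.2% for str (5 of 33) and 12.5% for srh (9 of 72). The most abundant was srd-14 on chromosome IV, a gene annotated as a pseudogene, with 150, 201 and 138 counts in the solitary and 144, 138 and 155 in the 10-worm libraries. Its level of 2.69 CPM per kb was above that of every srd member, the highest of which, srd-64, stood at 0.296. Next came sri-8 with 302 counts in all at 0.895 CPM per kb. The pseudogenes sri-59 and sri-55, with 216 and 151 counts, share exonic bases with the detected member sri-57, which had 150 counts. None of the 26 had an unadjusted p under 0.05 in edgeR's quasi-likelihood test, and the smallest adjusted p was 0.672.

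A total of 8 symbols were shared by a pair of rows each, and none of those rows had more than 3 counts. For 6 of these symbols the rows lie on chromosome V, and their starts differ by 108279 bases for each pair, between positions 2394485 and 2560739. Reads that match both copies equally would be left out of a count of unique reads, and this was not tested.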
